A study of Drosophila melanogaster with 2 samples.

Results

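The genes described here encode translation initiation factors of Drosophila melanogaster. They are the protein-coding genes whose symbol begins with eIF and a digit, and there are 44 of them among 13945 protein-coding genes. The data are peak lists from chromatin immunoprecipitation with sequencing (ChIP-seq) of the zinc-finger protein Sob, made from whole embryos aged 0 to 24 h. The flies were of the sob-GFP strain, in which Sob is fused to enhanced green fluorescent protein, and the fusion was precipitated with an antibody against GFP. There was 1 group of 2 biological replicates and no second condition. The same tagged strain served for both replicates, and each library pooled all tissues and stages of a day of development. The lists hold no expression values, so the labelled tissue could not be set against marker genes, and with 1 group no comparison between conditions could be tested.

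Translation initiation loads the small ribosomal subunit with initiator methionyl-tRNA, brings it to the capped end of an mRNA, moves it to the start codon and joins it to the large subunit. In this scheme eIF2 carries the tRNA and eIF2B recharges eIF2 with GTP, while eIF3 is the large scaffold on the small subunit. The cap is held by eIF4E, which works with the scaffold eIF4G and the RNA helicase eIF4A. Most of these proteins are needed in every cell, but several fly factors also have extra gene copies, some of them known for their use in the male germ line.

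A gene was counted as marked when the summit of a peak lay within 1000 bp of any of its transcription start sites (TSS), and where several peaks qualified the strongest gave the promoter signal. Positions are counted from the nearest TSS of the gene and are negative upstream of it. Signals are the authors' values per peak, with no stated scale. The main list was made from both replicates and held 7001 peaks on the main chromosome arms. Lists made from a single replicate held 4477 peaks for replicate 1 and 4626 for replicate 2, and are called the own lists here. Longer ranked lists, which include weak peaks, held 115513 peaks for both replicates together. The number of reads behind the lists is unknown.

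The sequences shown first lie inside the promoter peaks of 5 of the 7 initiation factor genes with the highest promoter signals, since these carry the strongest Sob peaks. Each reads 5′ to 3′ along the strand of the initiation factor gene. They come from RefSeq's copy of genome release 6, whose coordinates are those of dm6. Except at eIF2A, each spans up to 50 bp on either side of the summit and was ended where an annotated exon began. Capitals mark the motifs that were searched for, which here are TATCGATA (the DNA replication-related element, DRE), its core ATCGAT, and CGATA, read on either strand as CGATA or TATCG, a half-site of the boundary factor BEAF-32. These motifs overlap each other by construction. At eIF2A the summit lay inside an exon of the longer transcript, so only 30 bases around the DRE are shown. These bases do not reach the summit and leave out the motif GGTCACAC, described below, that lay on it. Lower-case letters throughout mean that no searched motif was found in that window, as at eIF2Bbeta.
eIF2Bbeta (chrX:2703853-2703944, plus strand): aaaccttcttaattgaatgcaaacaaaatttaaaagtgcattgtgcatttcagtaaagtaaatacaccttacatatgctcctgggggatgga
eIF1 (chr3L:3222968-3223068, plus strand): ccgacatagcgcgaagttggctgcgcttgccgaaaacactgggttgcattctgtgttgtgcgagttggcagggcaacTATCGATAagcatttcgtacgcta
eIF2A (chr3L:21824865-21824894, plus strand): ttacTATCGctTATCGATAcaccgcgtaca
eIF3a (chr3R:4433896-4433964, minus strand): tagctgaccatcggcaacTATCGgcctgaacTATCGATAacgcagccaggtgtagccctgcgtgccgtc
eIF3f1 (chr3R:4714183-4714267, minus strand): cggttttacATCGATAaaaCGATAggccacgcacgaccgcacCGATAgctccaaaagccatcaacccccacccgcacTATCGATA

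The initiation factor genes carried Sob promoter peaks about as often as protein-coding genes in general. Of the 44 genes 17 (38.6%) were marked, against 32.9% of all protein-coding genes, a share that would give 14.5 of 44. Where a member was marked, its peak was often of moderate to high strength. The median promoter signal of the 17 was 263, with quartiles of 126 and 355, against a median of 168 over all 4589 marked genes, with quartiles of 114.8 and 284. In the replicates' own lists the medians were 130 in replicate 1 and 134 in replicate 2 for the members, against 116 and 105 for all marked genes. Signals in the main list were higher throughout, with a median over all its peaks of 133, against 93.5 and 91.3 in the own lists of replicates 1 and 2. The median of 263 also depended on how a peak between 2 genes was assigned: it was 174 when a peak counted only for the gene with the nearest TSS, against 157 over all genes.

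In the stricter conservative list 15 of the 44 genes (34.1%) were marked, against 26.2% of all genes, and the genes lost were eIF3e and eIF4G2. Each replicate alone marked 13 of the 44 genes (29.5%), against 24.3% of all genes in replicate 1 and 24.4% in replicate 2. Of the 17 genes marked in the main list, 11 (64.7%) were marked in both own lists, against 57.4% of all marked genes. The 11 were eIF1, eIF2A, eIF2Bbeta, eIF2gamma, eIF3a, eIF3c, eIF3f1, eIF3h, eIF3m, eIF4E1 and eIF6. Over all protein-coding genes, 19% were marked in both own lists, against 25% of the 44. For these 11 genes the summits of the replicates lay a median of 9 bp apart, with a range of 0 to 80 bp. Over all 2633 genes marked in the main list and both own lists, the median was 21 bp. Of the other 6 genes, eIF3k and eIF5B were marked in replicate 1 alone, eIF2D and eIF2Bdelta in replicate 2 alone, and eIF3e and eIF4G2 in neither. All 6 had weaker peaks of the ranked lists under the main peak in both replicates. Across the 17 genes the ratio of replicate 1 to replicate 2 had a median of 1.00 and ranged from 0.570 at eIF2D to 1.95 at eIF3c, with replicate 1 higher at 9 genes and replicate 2 at 8. Over the 4390 marked genes with a value in both replicates the median was 1.07, with replicate 1 higher at 2488 and replicate 2 at 1902.

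**Figure D1:**
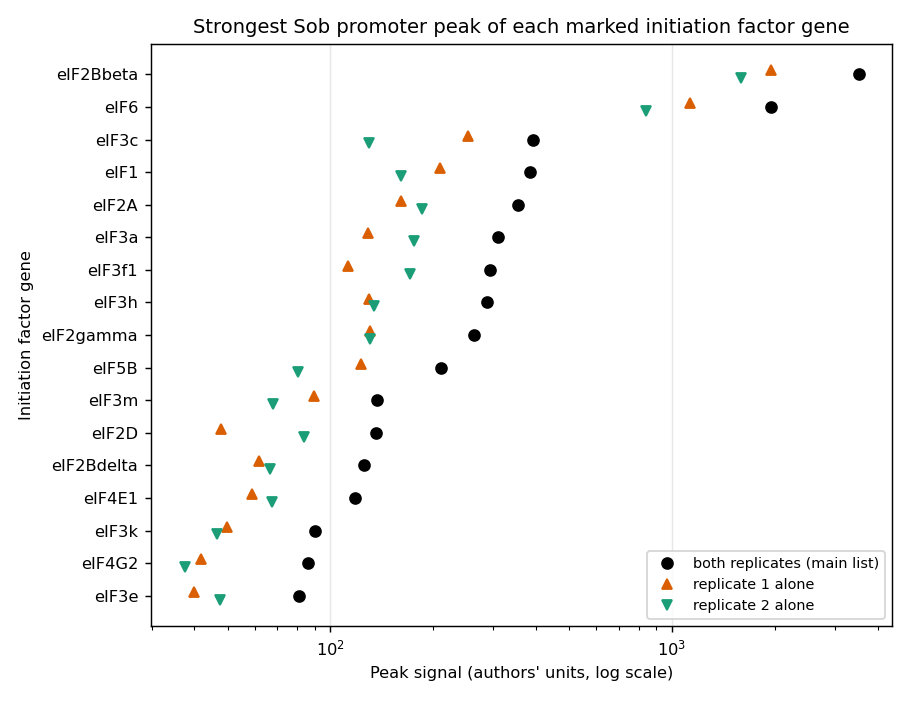
Signal of the strongest promoter peak (horizontal axis, authors' units on a log scale) for the 17 marked genes, ordered by the main list; circles are the main list from both replicates, triangles the highest overlapping peak in the ranked list of each replicate. eIF2Bbeta at 3525 and eIF6 at 1951 stand above 1000, and the other 15 lie between 80.7 and 391.6.

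The factors of start codon recognition had 1 marked gene of 3 (33.3%), against 32.9% of all protein-coding genes. eIF1, which keeps the scanning ribosome from stopping at wrong codons, had a main-list signal of 385 (FBgn0035423; chr3L:3222909-3223122), with 210 in replicate 1 and 161 in replicate 2. The summit lay at −323 bp from eIF1 and at −58 bp from RpL28, a ribosomal protein gene that runs in the opposite direction. A weaker peak with a signal of 127 lay between the pair, at −123 bp from eIF1. Counting each peak only for the nearest gene left eIF1 with the weaker one. The lists do not say which gene a shared peak belongs to. eIF1A, the partner of eIF1 in scanning, and eIF5, the factor that triggers GTP hydrolysis on eIF2, were not marked; their best ranked peaks had signals of 58.0 and 40.3.

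Among the 8 genes of eIF2 and its exchange factor eIF2B, 3 (37.5%) were marked, against 32.9% of all protein-coding genes. These 3 differed more in signal than the marked genes of any other group. eIF2Bbeta, a regulatory subunit of eIF2B, reached 3525, the signal at place 3 in the main list (FBgn0024996; chrX:2703688-2704088), 1951 in replicate 1 and 1598 in replicate 2. It held place 3 in both own lists as well. The summit lay at −677 bp from eIF2Bbeta and at −42 bp from Ugalt, a UDP-galactose transporter gene that runs the other way. eIF2Bbeta was therefore no longer marked with promoters of 500 bp or when a peak counted only for the nearest TSS. eIF2gamma, the subunit that binds GTP and the tRNA, had 263 (FBgn0263740; chr3R:15263418-15263594), with 131 in replicate 1 and 130 in replicate 2. Its summit was at −23 bp from a TSS that it shares with Su(var)3-9, the histone methyltransferase gene, and at −71 bp from Set. eIF2Bdelta had a signal of 126, with 62.0 and 66.3 in the ranked lists of replicates 1 and 2, and its summit lay at −721 bp, closer to CG30414 and roh than to eIF2Bdelta, which was likewise not marked under either of these rules. Thus none of the marked genes in this group had the peak to itself.

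The other 5 genes of eIF2 and eIF2B were not marked. The best ranked peak had a signal of 85.3 at eIF2Bgamma, 54.8 at the catalytic subunit gene eIF2Bepsilon, 40.2 at eIF2beta, 37.9 at eIF2alpha, the subunit phosphorylated under stress, and 24.1 at eIF2Balpha. For comparison, the median main-list peak had 133. The value at eIF2Bgamma was nonetheless above the 80.7 of eIF3e, which was marked. The best ranked peaks at eIF2Bgamma had 20.7 in replicate 1 and 64.6 in replicate 2. Both genes of the tRNA carriers that act apart from eIF2 were marked, in a group of only 2, against 32.9% of all protein-coding genes. Neither shared its peak with another coding gene. eIF2A had 355 (FBgn0037135; chr3L:21824816-21825005), with 161 in replicate 1 and 186 in replicate 2. Its summit was at −57 bp from the inner of its TSSs and 168 bp downstream of the outer one. eIF2D, known for recycling and reinitiation, had 136, with 47.9 in the ranked list of replicate 1 and 84.0 in replicate 2, the lowest ratio of replicate 1 to replicate 2 among the 17 genes.

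The subunits of eIF3 formed the largest group, and 7 of its 16 genes (43.8%) were marked, against 32.9% of all protein-coding genes. The scaffold subunits eIF3c and eIF3a had the highest signals. eIF3c had 391.6 (FBgn0034258), with 252 in replicate 1 and 129 in replicate 2, and its summit lay at −26 bp. eIF3a had 310 (FBgn0037249), with 129 in replicate 1 and 175 in replicate 2. Its peak filled the short interval between eIF3a and CG1074, which start in opposite directions, with its summit at −48 bp from eIF3a and at −22 bp from CG1074, so eIF3a was not marked when only the nearest TSS counted. The whole of that interval is the eIF3a sequence given above.

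The genes eIF3f1 and eIF3h, for MPN-domain subunits of eIF3, had peaks of similar strength at a TSS. The related copy of eIF3f1, eIF3f2, was not marked. eIF3f1 had 293 (FBgn0037270; chr3R:4714135-4714300), with 113 in replicate 1 and 171 in replicate 2, at −35 bp. eIF3h had 287 (FBgn0022023; chr2L:5052697-5052914), with 130 in replicate 1 and 134 in replicate 2. Its summit was 3 bp downstream of the inner of its TSSs, 317 bp downstream of the outer one, and at −66 bp from senju. The 3 remaining marked subunits were weaker. eIF3m had 137, with 89.5 and 67.7 in replicates 1 and 2, and its summit lay at −101 bp from eIF3m and at −125 bp from CG8323. In the same order, eIF3k had 90.3, with 49.9 and 46.7, and eIF3e had 80.7, with 39.8 and 47.4. The last of these was among the weakest promoters of all marked genes, at percentile 2.66.

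The other 9 eIF3 genes were not marked. Best ranked peaks had signals of 62.8 at eIF3l, 54.7 at the core subunit gene eIF3b, 49.0 at eIF3j, 36.9 at eIF3i, 30.6 at eIF3g1, 21.6 at eIF3f2 and 17.2 at eIF3d2, and eIF3g2 had none in the joint ranked list. The one nearest to the threshold was eIF3d1, whose human counterpart can contact the cap. It had a ranked peak of 90.4 at −28 bp, with 48.8 in replicate 1 and 33.8 in replicate 2. The −log10 of its irreproducible discovery rate (IDR), a measure of how well repeated rankings agree, was 1.95, just short of the 2 at which the main list begins. At eIF3e, just inside, it was 2.20 with a lower signal of 80.7. Of these peaks, the one with the lower signal was thus the one in the list.

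Of the 7 genes of the eIF4E family 1 was marked, and of the 6 helicase and scaffold genes 1. Together these were 2 of 13 (15.4%), against 32.9% of all genes. With ranked peaks past the IDR threshold counted they were 4 of 13 (30.8%), against 33.7% of all genes. eIF4E1, which encodes the main cap-binding protein, had 118 (FBgn0015218; chr3L:9402308-9402687), with 58.9 in replicate 1 and 67.6 in replicate 2, at −38 bp from the outermost of its 4 TSSs. eIF4G2, a scaffold gene known from spermatogenesis in the fly, had 85.7, with 41.8 and 37.4 in the ranked lists of replicates 1 and 2. Its summit was 19 bp downstream of a TSS annotated both for it and for CG33111. The family members eIF4E3, eIF4E4, eIF4E6 and eIF4E7 had best ranked peaks of 41.9, 26.9, 53.9 and 37.0, and eIF4E5 had none in the joint ranked list. Those of eIF4H1 and eIF4H2, RNA-binding cofactors of eIF4A, had 46.0 and 50.9.

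The genes eIF4EHP and eIF4A had promoter peaks past the IDR threshold that were in the ranked lists and not in the thresholded ones. eIF4EHP encodes a cap-binding repressor through which Bicoid blocks caudal mRNA in the fly embryo. Its promoter peak (FBgn0053100; chr3R:24108912-24109381) had a signal of 1178 in the ranked list, place 71 of 115513, with 603 in replicate 1 and 590 in replicate 2. The summit lay at −202 bp from eIF4EHP and at −174 bp from CG18428. The −log10 IDR was 5, the highest value given, in the joint list and in both replicates. eIF4A, the RNA helicase gene, had 3 ranked peaks past the IDR threshold, with signals of 202, 105 and 86.2. The strongest (FBgn0001942; chr2L:5982284-5982663) lay 111 bp downstream of a TSS, with 80.4 in replicate 1 and 117 in replicate 2 for the strongest peak of each. The weakest lay 13 bp downstream of the TSS of chic, the neighbouring profilin gene.

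By these values eIF4EHP would hold place 3 among all 44 genes, after eIF2Bbeta and eIF6. The thresholded lists drew on a region file that was not used here. Of the 7180 ranked peaks past the threshold, 179 (2.49%) were absent from the main list, and 106 genes (0.760% of all) had a promoter peak past the threshold but none in the main list. Whether the region file accounts for these absences was not tested. With such peaks counted, 19 of 44 genes (43.2%) would be marked, against 33.7% of all genes. The sequence under the eIF4EHP summit is shown because it is the strongest member peak missing from the main list, and it was chosen after its values were seen. Capitals mark TATAAA on either strand.
eIF4EHP (chr3R:24109112-24109212, minus strand): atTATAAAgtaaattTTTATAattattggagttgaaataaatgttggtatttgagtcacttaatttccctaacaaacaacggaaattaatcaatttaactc

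**Figure D2:**
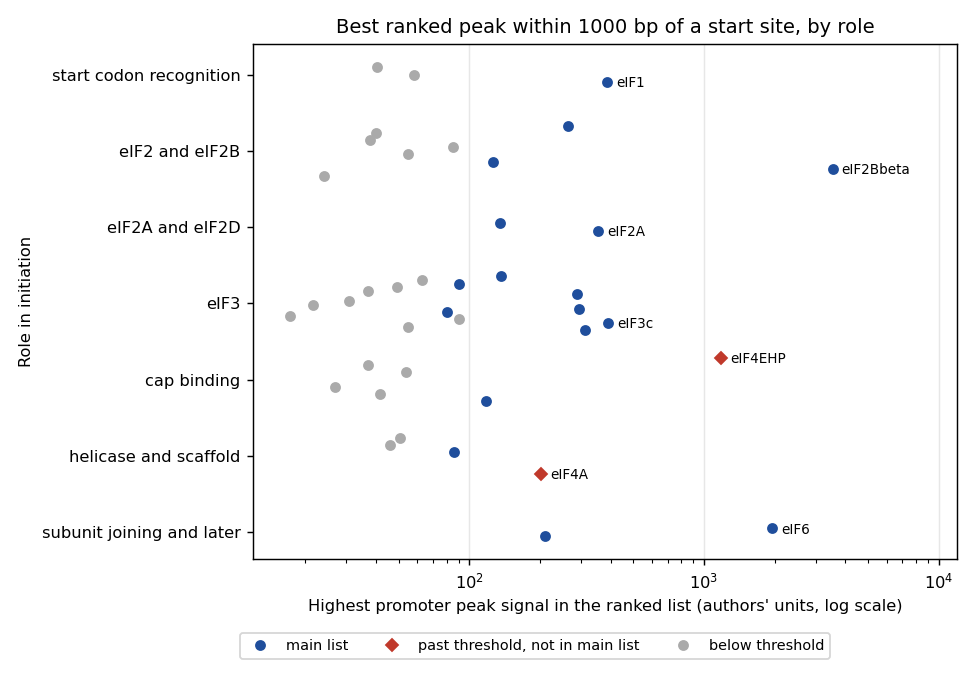
Highest signal (horizontal axis, authors' units on a log scale) among peaks of the joint ranked list within 1000 bp of a TSS, for the 40 genes that had one (eIF3g2, eIF4B, eIF4E5 and eIF4G1 had none), in rows by role; blue circles are in the main list, red diamonds pass the IDR threshold but are not in the main list, and grey circles fall below it. eIF4EHP at 1178 and eIF4A at 202 are the red diamonds, and the grey genes lie between 17.2 and 90.4.

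The factors of the last steps were both marked, in a group of only 2, against 32.9% of all protein-coding genes. eIF6, which keeps large subunits from joining too early and acts in ribosome biogenesis, had a signal of 1951 (FBgn0034915), place 18 of the main list. It had 1129 in replicate 1 and 838 in replicate 2, at places 15 and 18 of their own lists. Its summit lay at −105 bp, and in the own lists at −108 bp in replicate 1 and −105 bp in replicate 2. eIF5B, the GTPase of subunit joining, had 210, with 123 in replicate 1 and 80.3 in the ranked list of replicate 2. Its summit lay at −80 bp from the inner of its TSSs and 294 bp downstream of the outer one.

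The genes were also split by hand. Those whose factor or subunit has more than 1 gene in the set were taken as having a related copy, and the rest as single. Relations between different factors or subunits were not counted. Of 17 genes with a related copy 3 (17.6%) were marked, and of 27 single genes 14 (51.9%), against 32.9% of all protein-coding genes. The difference was not tested. With ranked peaks past the IDR threshold counted, the numbers were 4 of 17 and 15 of 27, against 33.7% of all genes. Both kinds had a median of 1 TSS. Marked initiation factor genes had a median of 2 and unmarked ones of 1. Over all protein-coding genes the median was 1 for marked and 1 for unmarked genes. The part of TSS number in these counts was not tested. The 3 marked genes with a related copy were eIF3f1, eIF4E1 and eIF4G2, 1 each from the eIF3f, eIF4E and eIF4G families, and none came from the eIF3d, eIF3g or eIF4H families. Within the eIF3f pair, eIF3f1 had 293 and the best ranked peak of eIF3f2 had 21.6. In the eIF3g pair the values were 30.6 for eIF3g1 and no joint ranked peak for eIF3g2. The highest ranked value among the unmarked genes with a related copy was that of eIF4EHP.

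Chromosomal surroundings differed at a few unmarked genes. eIF4B lay in the part of 3L near the centromere, 4979397 bp from the closest main-list summit and 44842 bp from the closest summit of the joint ranked list. eIF4G1, the main scaffold gene, lay on chromosome 4, where 9 of 80 protein-coding genes (11.2%) were marked, 96563 bp from the closest main-list summit. For the 27 unmarked genes the distance to the closest main-list summit had a median of 9034 bp. The closest were eIF2Bgamma at 1265 bp, eIF3d1 at 1317 bp, eIF3g1 at 1368 bp and eIF3f2 at 1779 bp. The most distant summits that still counted were those at eIF2Bdelta and eIF2Bbeta, at −721 and −677 bp.

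Summits at the marked genes lay directly upstream of the TSS. The median position was −57 bp for the 17 genes, with quartiles of −130 and −35 bp, against −103 bp over all marked genes, with quartiles of −231 and −23 bp. In 12 of the 17 (70.6%) the summit was 0 to 150 bp upstream, against 42.3% of all marked genes. The exceptions were eIF2Bdelta, eIF2Bbeta and eIF1, which lay farther upstream, and eIF3h and eIF4G2, which lay just downstream. At 11 of the 17 (64.7%) another protein-coding TSS lay within 1000 bp of the same summit, against 59.4% of all marked genes. At 4 of them (23.5%), eIF1, eIF2Bbeta, eIF2Bdelta and eIF3a, another gene was closer, against 29.1% of all marked genes.

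**Figure D3:**
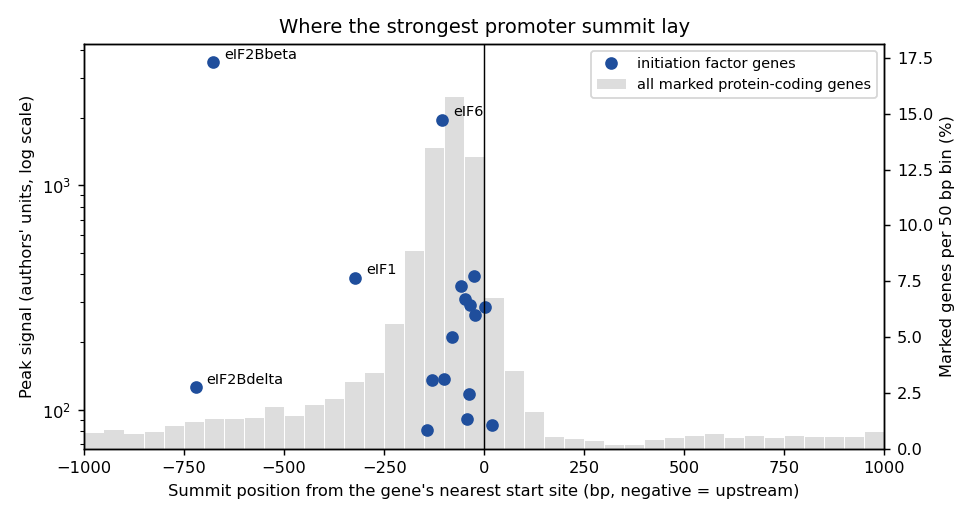
Points give, for the 17 marked genes, the position of the strongest promoter summit from the gene's nearest TSS (horizontal axis, bp, negative upstream) and its signal (left axis, log scale); grey bars give the share of all 4589 marked genes per 50 bp bin (right axis, %). Most points lie between −150 bp and the TSS, and eIF2Bbeta, eIF2Bdelta and eIF1 lie farther upstream.

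The DRE, an element of housekeeping promoters that is bound by the factor DREF, was found at several of these summits. TATCGATA lay within 50 bp of the strongest summit in 5 of the 17 genes (29.4%), against 5.34% of all marked genes and 2.51% of all main-list summits. Within 100 bp it was found in the same number, 5 (29.4%), against 10.3% of all marked genes, and within 25 bp in 2 (11.8%), against 2.79%. The 5 were eIF1, eIF2A, eIF2gamma, eIF3a and eIF3f1. The core ATCGAT was found in 6 (35.3%), with eIF4E1 added, against 13.1% of all marked genes. The half-site CGATA was also found in those 6, against 27.3% of all marked genes. The centre of the DRE lay at −6 bp at eIF2gamma, −34 bp at eIF3a, −4 bp at eIF3f1 and −86 bp at eIF2A. In the sequence of eIF3f1 shown above, the DRE is the last 8 bases before the TSS. At eIF1 the DRE lay at −292 bp, on the RpL28 side.

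The 5 genes with a DRE had closely spaced signals of 263 to 385, while the 12 without it ranged from 80.7 to 3525. Their medians were 310 and 136. Over all marked genes the order was the other way round, with a median of 149 for the 245 genes with a DRE and 170 for the 4344 without. The summit windows of the 6 genes with ATCGAT held 46.5% to 58.4% G and C, and those of the other 11 held 17.8% to 47.5%. The mean over the 17 windows was 41.5% ± 10.5, against 38.7% ± 11.2 over all marked genes (SD over genes).

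Each of the other motifs was found at 2 or fewer of the 17 genes. GGTCACAC, the core of the promoter element known as Ohler motif 1, was found at eIF2A, directly on the summit, and at eIF2Bdelta, 2 of 17 (11.8%) against 2.88% of all marked genes. TATAAA was found at eIF4E1 and eIF6, or 11.8% against 16.7%. GAGAG, bound by GAGA factor, and a run of 7 T or A were each found at 1 gene of 17 (5.88%), eIF3c, against 11.0% and 9.89% of all marked genes. Neither CAGTAGC, the short form of the odd-skipped family motif, nor the longer ACAGTAGC was found at any of the 17, against 0.784% and 0.0872% of all marked genes. CAGCTG and the Zelda motif CAGGTAG were not found either, against 6.08% and 0.370%. The absence of these letters from 17 windows says nothing about the factors.

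**Figure D4:**
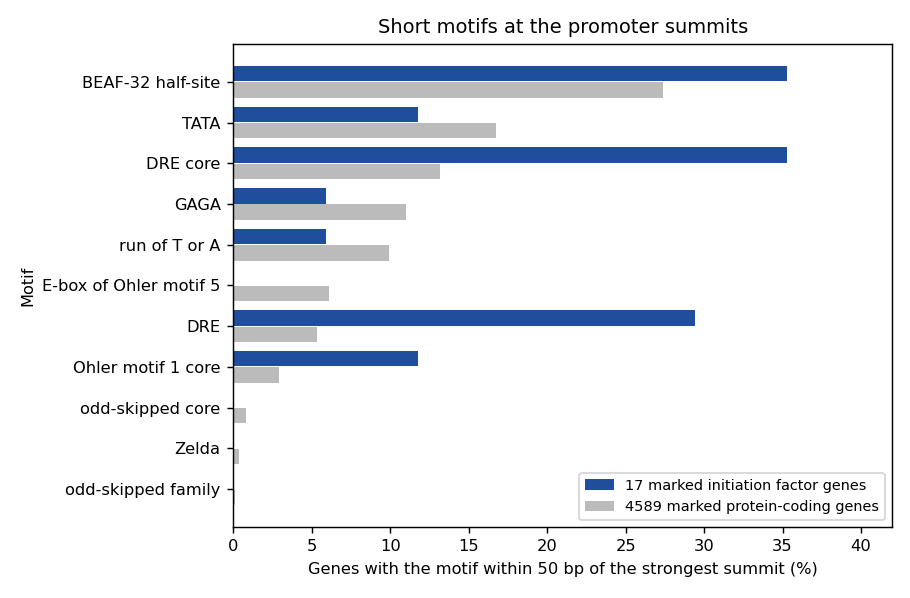
Share of genes (horizontal axis, %) with each short motif within 50 bp of the strongest promoter summit, on either strand, for the 17 marked initiation factor genes (blue) and all 4589 marked protein-coding genes (grey). The DRE stands at 29.4% and 5.34%, and the odd-skipped family motifs at 0 in the 17 genes.

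Other genes of the translation machinery were read in the same way. Of 28 genes for elongation, termination and translation control, 18 (64.3%) were marked, with a median signal of 201. The highest were eEF1gamma, a subunit of the elongation factor complex, at 674, the poly(A)-binding protein gene pAbp at 445, eEF1alpha1 at 393 and the release factor gene eRF1 at 301. Among direct regulators of initiation, Thor, the fly eIF4E-binding protein gene, had 221 and the eIF2alpha kinase gene Gcn2 had 96.7. The kinase gene PEK and the phosphatase subunit gene PPP1R15 were not marked. Of 88 cytoplasmic ribosomal protein genes taken by symbol, 69 (78.4%) were marked, with a median of 282. Of 32 aminoacyl-tRNA synthetase genes 15 (46.9%) were marked, with a median of 131. For comparison, 38.6% of the initiation factor genes were marked, with a median of 263, against 32.9% of all protein-coding genes, with a median of 168. Differences between these lists were not tested.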

How the data were processed

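Peaks were placed on dm6, per the labels. The authors' peak signal came from calls against a control, per the deposited file lists, which also show that the thresholded lists used a region file. The authors' score expresses the IDR with 1000 as its top value, and the lowest in the main list was 830. The deposited −log10 values used are the global IDR of the ranked lists, and every main-list peak was found in the joint ranked list past a value of 2. Neither aligner nor caller is given in the sources used here. Gene models came from Ensembl release 115 (annotation 6.54), without transposable elements, and sequence from RefSeq release 6. Marking, positions and motifs were computed in Python 3.11.15 with pandas 2.3.3. Marking and the size of the distances were checked on simulated peaks. That check did not cover the sign of the distances or the motif search in the genome. Replicate values under a main-list peak are the highest overlapping peak (at least 1 bp) in that replicate's ranked list. With 1 group there were no tests. The members, lists and motifs were chosen with earlier results of these data known, and the split into single and related copies was made by hand. Every gene of the set is named, sequences are given for the 5 strongest members whose sequence may be shown, and related genes are the 4 of highest signal and 4 direct regulators. Depth is unknown, and no intervals are given for the shares.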

Additional observations from a re-analysis of the deposited data

Results flagged for a closer look

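Both results here come from the ranked lists, outside the main measurement, and rest on peaks past the IDR threshold that the thresholded lists do not hold. The promoter peak of eIF4EHP had a signal of 1178 in the joint ranked list, above 41 of the other 43 genes. The strongest promoter peak of eIF4A had a signal of 202.4. In each replicate's own ranked list both genes also had a peak past the threshold, and in neither case did that replicate's thresholded list hold it. The cause was not tested.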

How the results depend on the processing

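The number of marked genes stayed within 1.5 times the main count of 17 under every alternative tried, from 12 with the stronger 50% of peaks to 21 with promoters of 2000 bp. It was 15 with the conservative list and with promoters of 500 bp, 14 with the nearest TSS only, 17 with any base of the peak and 13 with either replicate left out. The share was 27.3% with the stronger 50%, against 21.2% of all genes, and 47.7% with promoters of 2000 bp, against 39.2%. With promoters of 500 bp it was 34.1%, against 29% of all genes. The nearest TSS only gave 31.8%, against 24.5%, and any base of the peak 38.6%, against 34.1%. The shares for the conservative list and for each replicate are given above. These differences were not tested. eIF2Bbeta and eIF2Bdelta lost their calls with promoters of 500 bp and with the nearest TSS only, which also lost eIF3a. The median signal of 263 was 287 with the conservative list, 302 with the stronger 50%, 285 with promoters of 2000 bp, 174 with the nearest TSS only, and 130 to 134 with 1 replicate left out, where each list has its own scale. Genes marked in both own lists numbered 11, and 9 with overlap of 50% of both peaks. The median position of −57 bp was −44 bp from the nearest TSS of any coding gene. Over all marked genes these medians were −103 and −64 bp. The DRE was found at 2 genes (11.8%) within 25 bp, against 2.79% of all marked genes, and at 5 (29.4%) within 100 bp, against 10.3%. Counting ranked peaks and overlaps of 1 bp were alternatives chosen after seeing the data. No paired analysis was possible because there is 1 group. Depth is unknown, so an unmarked gene is not shown to be unbound.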

Other observations

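Sob peaks inside the bodies of these genes, beyond 1000 bp of their TSSs, were found in 2 of the 44, and all lay in introns. The 2 are the longest genes of the 44, and the part of gene length was not tested. The share of all protein-coding genes with such peaks was not counted, so the 2 genes cannot be set against it. eIF5B had 4, the strongest with a signal of 319 (chr3L:3432759-3432929), 27740 bp downstream of the TSS and so stronger than its promoter peak of 210. The other 3 had 111, 117 and 130. eIF4EHP had 3, the strongest with 385 (chr3R:24099075-24099282), 9777 bp downstream of the TSS, and the others 96.7 and 105. None of the 7 summits was within 1000 bp of the TSS of another coding gene. The strongest of each gene, and the eIF5B peaks with 117 and 130, overlapped a peak in both replicates' own lists.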
